A study of Mus musculus with 7 samples.

Results

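The proteasome subunits described here are the products of 34 mouse genes, Psma1 to Psma7, Psmb1 to Psmb7, Psmc1 to Psmc6 and Psmd1 to Psmd14, chosen by gene symbol from a table of 24537 genes. The immunoproteasome subunits Psmb8, Psmb9 and Psmb10 were left out of this set and serve as a comparison. All 34 passed the filter on low values that left 13028 genes for testing. The proteasome is the protease that degrades ubiquitin-tagged proteins in every cell. Its 20S core is a barrel of outer alpha rings and inner beta rings, with the active sites on Psmb5, Psmb6 and Psmb7. The 19S regulatory particle sits on the core, where a ring of ATPases (Psmc genes) unfolds substrates, receptor subunits bind ubiquitin and a lid removes it. Immune cells, microglia included, can replace the active beta subunits with immunoproteasome forms, best known as targets of interferon gamma.

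RNA was sequenced from microglia sorted as CD45int CX3CR1+ cells out of the brains of C57BL/6 mice carrying the 005 glioma, an implanted mouse glioblastoma model, at day 35. There were 3 libraries from mice given anti-CTLA4, an antibody to a T cell checkpoint receptor, together with anti-CD4 depletion of CD4 T cells. A further 2 libraries were labelled anti-CTLA4 alone, and 2 came from mice given control IgG. All groups carried the tumour, and doses, sex and age are not given in the sources used here. Whether each replicate is a separate animal is not stated, so the p-values speak only of library-to-library spread, which could be technical.

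The columns read as anti-CTLA4 conflict with the header of the same table. Their names carry sample sheet numbers 29 and 30, which the header command assigns to 2 libraries whose names read as knockouts of the interferon-gamma receptor, while that command gives the anti-CTLA4 libraries numbers 10 and 11. The text therefore speaks of libraries labelled anti-CTLA4, and each direction in a comparison with them depends on that reading. The table holds FPKM (fragments scaled to transcript length and to sequencing depth), so levels of different genes are compared per length. Low values implied 84100000 to 107000000 reads per library, and between 1190 reads (Psma3) and 20100 reads (Psmd1) behind a single value of the set. Microglial markers were abundant in every library (Tmem119 at 243 to 505 FPKM with CD4 depletion plus anti-CTLA4, 548 to 1000 FPKM in the libraries labelled anti-CTLA4 and 368 to 467 FPKM with control IgG). The T cell markers summed to at most 5.02 FPKM.

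The subunit transcripts were abundant, and most were lower per length in the libraries labelled anti-CTLA4. The median level over the 34 genes was 69.7, 72.0 and 74.1 FPKM in the CD4 depletion plus anti-CTLA4 libraries, 47.9 and 39.9 FPKM in the libraries labelled anti-CTLA4 and 75.2 and 75.01 FPKM in the control IgG libraries. As a share of all FPKM in a library, the set took 0.898%, 0.979% and 0.977% with CD4 depletion plus anti-CTLA4, 0.620% and 0.513% in the libraries labelled anti-CTLA4, and 0.984% and 0.991% with control IgG. On both measures the libraries labelled anti-CTLA4 lay below the other 5, which lay close together. Averaged over the 7 libraries, the highest levels were those of Psmb6 (149.7 FPKM), Psma7 (146 FPKM) and Psmb1 (142 FPKM). The lowest were Psma3 (9.20 FPKM), Psmd9 (11.1 FPKM) and Psmd10 (15.4 FPKM). The level of Psma3, an alpha ring subunit, rests on a deposited length of 2361 nucleotides, while coding transcripts of this gene in GENCODE M21 run from 312 to 2846 nucleotides. Psmb6 and Psmb1 both have a deposited length of 1028 nucleotides. Their GENCODE coding transcripts have 798 nucleotides for Psmb6 and 1435 to 1970 for Psmb1, so the order of levels depends on the deposited lengths.

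**Figure D1:**
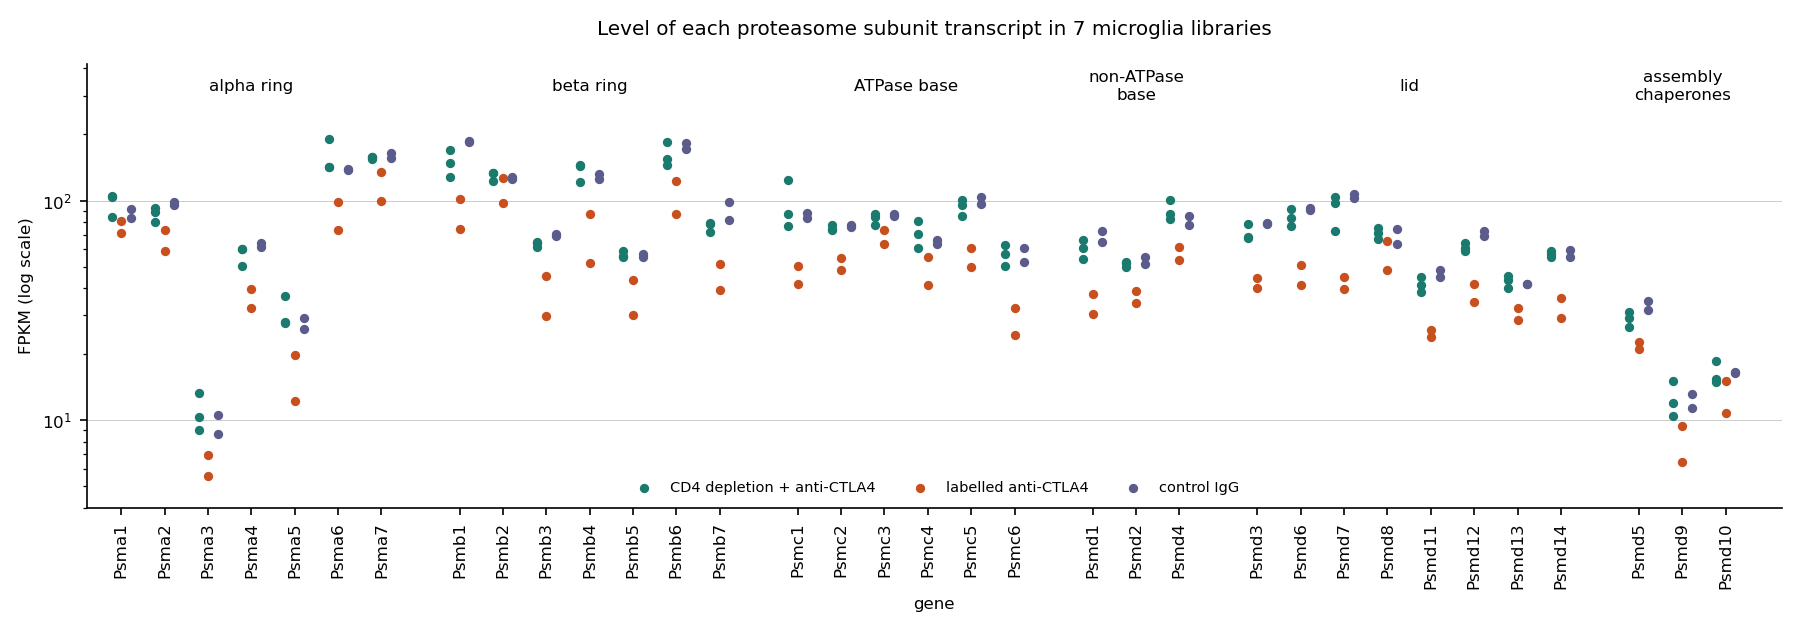
Level of each of the 34 genes in FPKM (log axis), 1 point per library, by subcomplex, for CD4 depletion plus anti-CTLA4, labelled anti-CTLA4 and control IgG. For 32 genes both libraries labelled anti-CTLA4 lie below both control IgG libraries.

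The 2 libraries labelled anti-CTLA4 also differed from each other. Replicate 2 was lower than replicate 1 for 33 of the 34 genes, with a median log2 difference of -0.30 against -0.06 over all tested genes. The 2 control IgG libraries differed by a median of 0.03, with 15 genes lower and 19 higher in replicate 2. Replicate 2 labelled anti-CTLA4 also had the higher summed level of 20 homeostatic microglia markers, 32500 FPKM against 22300 FPKM in replicate 1.

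Promoters are shown for 4 members because the set moved together and because 2 known routes to its transcription have short recognition letters. Nrf1 (gene Nfe2l1), which raises proteasome genes when the protease is inhibited, and Nrf2 (gene Nfe2l2) bind antioxidant response elements, and ETS factors bind sites with a GGAA core. RefSeq promoters of GRCm38.p6, 250 bases before to 50 bases after each start, matched 28 of the 34 members with 30 promoters. The letters TGACNNNGC, searched on both strands, were in 5 of the 30 (16.7%), against 12.4% of all 32851 promoters. The letters CCGGAAG were in 11 of the 30 (36.7%), against 8.86% of all promoters, and CCAAT was in 11 (36.7%), against 37.4% of all. Among these members, only Psmc6 and Psmd12 held matches to both of the first 2 motifs. The promoters below are those of the active-site genes Psmb5 (chr14:54617946-54618245, minus strand) and Psmb6 (chr11:70525107-70525406, plus strand), the ATPase gene Psmc6 (chr14:45329574-45329873, plus strand) and the lid gene Psmd12 (chr11:107479278-107479577, plus strand). Each runs 5′ to 3′ along the gene's strand. Capitals mark TGACNNNGC in all 4 and CCGGAAG in Psmc6 and Psmd12, read on either strand, and no 2 marked matches overlap. A match describes these letters and is not evidence of binding.
Psmb5: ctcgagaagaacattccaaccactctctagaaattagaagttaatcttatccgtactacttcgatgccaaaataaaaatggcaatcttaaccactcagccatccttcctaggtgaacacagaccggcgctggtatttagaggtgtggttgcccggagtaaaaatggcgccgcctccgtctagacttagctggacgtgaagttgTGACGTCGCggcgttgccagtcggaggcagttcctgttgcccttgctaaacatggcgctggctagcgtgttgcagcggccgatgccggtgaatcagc
Psmb6: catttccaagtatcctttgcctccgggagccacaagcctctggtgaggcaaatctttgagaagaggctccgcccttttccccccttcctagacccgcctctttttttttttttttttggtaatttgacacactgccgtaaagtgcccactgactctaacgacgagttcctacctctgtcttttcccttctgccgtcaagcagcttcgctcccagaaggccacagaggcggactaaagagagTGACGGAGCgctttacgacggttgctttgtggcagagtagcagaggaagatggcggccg
Psmc6: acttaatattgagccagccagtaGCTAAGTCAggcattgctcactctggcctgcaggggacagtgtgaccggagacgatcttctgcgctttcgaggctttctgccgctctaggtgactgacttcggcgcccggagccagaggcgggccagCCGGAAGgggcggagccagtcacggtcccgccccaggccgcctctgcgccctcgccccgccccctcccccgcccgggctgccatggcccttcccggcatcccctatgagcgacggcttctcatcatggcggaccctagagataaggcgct
Psmd12: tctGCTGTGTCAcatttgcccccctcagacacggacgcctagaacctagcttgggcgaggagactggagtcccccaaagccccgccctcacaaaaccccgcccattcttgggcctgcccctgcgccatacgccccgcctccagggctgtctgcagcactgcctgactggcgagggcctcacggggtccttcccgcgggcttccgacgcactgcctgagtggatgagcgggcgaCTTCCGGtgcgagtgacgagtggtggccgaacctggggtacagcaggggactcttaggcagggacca

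The first comparison, labelled anti-CTLA4 against control IgG, concerns the checkpoint antibody only if the labels hold. In the libraries labelled anti-CTLA4, 24 of the 34 subunit genes were lower and 0 were higher (limma on log2(FPKM + 1), Benjamini-Hochberg adjusted p under 0.05 over all 13028 genes). Of all genes tested, 28.8% were lower and 9.29% were higher by the same rule. The median log2 difference of the 34 was -0.73, with a range of -1.30 to -0.18, against a median of -0.31 over all genes, and 31 of the 34 lay below that median. The standard deviation of the log2 differences among the 34 genes was 0.271, against 0.853 among all genes. The 34 lay at the 56.8 to 98.5 percentile of level among tested genes, so these 2 spreads are not matched for level. By subcomplex, the genes lower were 4 of 7 in the alpha ring (median log2 difference -0.55), 6 of 7 in the beta ring (-0.91), 4 of 6 ATPases (-0.71), 2 of 3 non-ATPase base subunits (-0.54), 7 of 8 lid subunits (-0.88) and 1 of 3 base assembly chaperones (-0.58). Differences between subcomplexes were not tested. The 2 groups did not overlap for 32 of the 34 genes, all lower in the libraries labelled anti-CTLA4, against 54.1% of all genes, and the exceptions were Psmb2 and Psmd8.

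This comparison depended on single libraries and on scaling. Without replicate 2 labelled anti-CTLA4, without replicate 1 or without replicate 2 of control IgG, 0 of the 34 genes passed (17, 20 and 21 at an unadjusted p under 0.05), in fits where the group left with 1 library is assumed to vary like the others. In the first 2 of those fits 0 of all genes passed either, and in the third 3.51% of all genes were lower and 1.85% higher. With median-of-ratios scaling, which centres the median of all genes at -0.01, 7 of the 34 genes passed as lower, against 15.7% of all genes, so the count was near that of all genes. There the median of the 34 was -0.37, and 5 genes that had not passed turned positive (Psma1 0.17, Psmb2 0.19, Psmc3 0.04, Psmd8 0.09 and Psmd10 0.004).

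**Figure D2:**
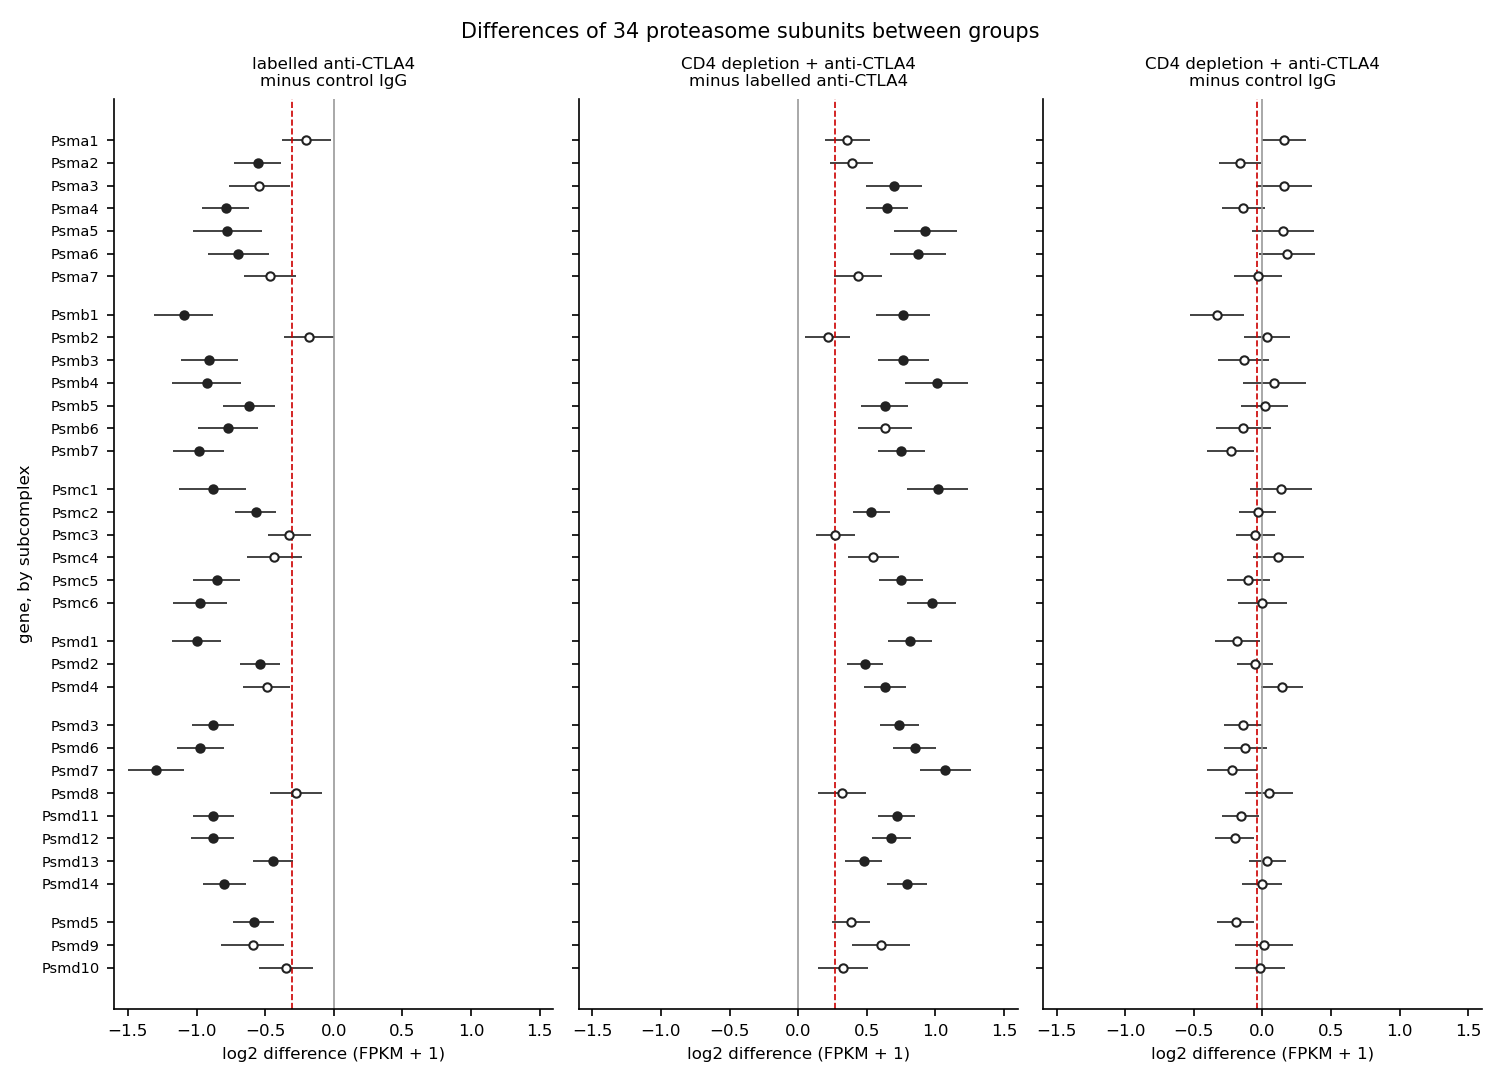
Log2 difference in FPKM + 1 for each gene in the 3 comparisons, with bars of 1 standard error. Filled points passed limma's adjusted p under 0.05 and the dashed line is the median of all tested genes. The 34 points are all below 0 in the first panel, all above 0 in the second and around 0 in the third.

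The second comparison, CD4 depletion plus anti-CTLA4 against labelled anti-CTLA4, concerns the removal of CD4 T cells under the antibody only if the labels hold. It shares the labelled anti-CTLA4 libraries with the first, so a low value in these libraries enters both with opposite sign. With CD4 depletion plus anti-CTLA4, 23 of the 34 genes were higher and 0 were lower, against 22.8% higher and 6.59% lower among all genes (limma, adjusted p under 0.05). The median log2 difference was 0.66, with a range of 0.22 to 1.07, against 0.27 over all genes. The genes higher were 4 of 7 in the alpha ring (median 0.65), 5 of 7 in the beta ring (0.75), 4 of 6 ATPases (0.65), 3 of 3 non-ATPase base subunits (0.63), 7 of 8 lid subunits (0.73) and 0 of 3 base assembly chaperones (0.39). The groups did not overlap for 32 genes, all higher with CD4 depletion plus anti-CTLA4, against 44.7% of all genes, with Psmb2 and Psmd10 as the exceptions. Without replicate 2 labelled anti-CTLA4, 0 of the 34 genes and 0 of all genes passed (22 of the 34 at an unadjusted p under 0.05). There were 8 higher without replicate 2 and 5 without replicate 3 of the depletion group, against 7.61% and 5.61% of all genes. There were 6 with median-of-ratios scaling, against 11.2% of all genes (median 0.35, all genes 0.01), where Psmb2 (-0.10) and Psmc3 (-0.04) turned negative.

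The third comparison, CD4 depletion plus anti-CTLA4 against control IgG, showed no change that passed. Higher genes numbered 0 and lower genes 0 among the 34, and likewise 0.0% of all genes in each direction (limma, adjusted p of the 34 from 0.71 to 0.998). At an unadjusted p under 0.05 there were 0 of the 34, against 6.53% of all genes. The median log2 difference was -0.03, against -0.04 over all genes, with a range of -0.33 (Psmb1) to 0.18 (Psma6). The groups did not overlap for 7 genes that were lower and 1 that was higher, against 16.2% and 11.0% of all genes. A difference that misses the threshold with 3 and 2 libraries does not show equal levels.

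Markers of other cells moved with these differences. The sum of 15 oligodendrocyte precursor and tumour cell markers was 192 to 647 FPKM with CD4 depletion plus anti-CTLA4, 41.6 and 105 FPKM in the libraries labelled anti-CTLA4, and 739 and 1040 FPKM with control IgG. Of these 15 markers, 14 were lower in labelled anti-CTLA4 against control IgG and 12 were higher with CD4 depletion plus anti-CTLA4 against labelled anti-CTLA4. Beside this and the counts below, 28.8% of all genes were lower and 9.29% higher in the first comparison. In the second, 22.8% of all genes were higher and 6.59% lower. The 12 cell cycle genes summed to 251 to 314 FPKM with CD4 depletion plus anti-CTLA4, 80.0 to 170.0 FPKM in the libraries labelled anti-CTLA4 and 255 to 268 FPKM with control IgG. Of these, 6 were lower in labelled anti-CTLA4 against control IgG and 8 were higher with CD4 depletion plus anti-CTLA4 against labelled anti-CTLA4. Among them the DNA replication helicase genes Mcm2, Mcm5 and Mcm7 and the cyclin gene Ccna2 were lower in labelled anti-CTLA4 against control IgG (log2 differences -1.74, -1.48, -1.75 and -1.19, limma adjusted p from 0.011 to 0.0316). The 20 homeostatic microglia markers summed to 9240 to 16300 FPKM with CD4 depletion plus anti-CTLA4, 22300 to 32500 FPKM in the libraries labelled anti-CTLA4 and 12900 to 15000 FPKM with control IgG. They ran the other way, with 7 higher in labelled anti-CTLA4 against control IgG and 7 lower in the second comparison. Astrocyte markers summed to 179 to 294 FPKM with CD4 depletion plus anti-CTLA4, 71.3 to 109 FPKM in the libraries labelled anti-CTLA4 and 192 to 268 FPKM with control IgG. Endothelial and mural markers summed to 53.9 to 181 FPKM with CD4 depletion plus anti-CTLA4, 181 to 325 FPKM in the libraries labelled anti-CTLA4 and 23.5 to 35.1 FPKM with control IgG. Astrocyte markers thus lay on the side of the subunits, and endothelial and mural markers on the side of the homeostatic ones. Erythroid markers summed to 166 to 576 FPKM with CD4 depletion plus anti-CTLA4, 939 to 980 FPKM in the libraries labelled anti-CTLA4 and 47.4 to 328 FPKM with control IgG. Myelin markers overlapped, at 77.6 to 158 FPKM with CD4 depletion plus anti-CTLA4, 109 to 162 FPKM in the libraries labelled anti-CTLA4 and 95.0 to 133 FPKM with control IgG. Monocyte and neutrophil markers reached 1430 FPKM in replicate 1 of the depletion group and 32.8 to 97.4 FPKM in the other libraries. No marker was at 0 in every library. In bulk libraries, fewer cells of a type and less RNA per cell cannot be told apart, and the part of these cells in the subunit differences was not tested.

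In the alpha ring, which forms the gated ends of the core, 3 of 7 genes passed in both of the first 2 comparisons (Psma4, Psma5 and Psma6). How many of all genes passed in both was not computed. Psma4 (chromosome 9, 54950859 to 54958030, plus strand, mm10) had 50.6, 60.3 and 60.0 FPKM with CD4 depletion plus anti-CTLA4, 39.5 and 32.5 FPKM in the libraries labelled anti-CTLA4 and 64.1 and 61.2 FPKM with control IgG. The libraries labelled anti-CTLA4 lay below all others, with a log2 difference from control IgG of -0.79 (SE 0.17, limma adjusted p = 0.0144) and of the depletion group from them of 0.65 (SE 0.155, adjusted p = 0.0242). The span of Psma4 overlaps that of AY074887 on the opposite strand, whose highest level was 4.84 FPKM. Mir1198 overlaps the span of Psma6 and Mir686 that of Psmb5, on the same strand, each at most 94.6 FPKM. Exon reads on both strands were counted, so reads could be shared where exons overlap. Overlap of exons was not checked for any of these pairs. Htr2b overlaps Psmd1 on the opposite strand, at most 1.01 FPKM. Psma6 (chromosome 12, 55398825 to 55418459, plus strand) had 143, 141 and 191 FPKM with CD4 depletion plus anti-CTLA4, 98.5 and 73.3 FPKM in the libraries labelled anti-CTLA4 and 137 and 139 FPKM with control IgG. Psma6 was lower in labelled anti-CTLA4 against control IgG with a log2 difference of -0.70 (adjusted p = 0.0445) and higher in the second comparison (0.88, adjusted p = 0.0228, limma). Its 3 depletion libraries also lay above both control IgG libraries, a difference that did not pass (0.18). Psma2 (chromosome 13, 14613242 to 14625673, plus strand) had 88.8, 92.5 and 79.7 FPKM with CD4 depletion plus anti-CTLA4, 73.5 and 59.3 FPKM in libraries labelled anti-CTLA4 and 98.9 and 95.9 FPKM with control IgG. It passed against control IgG (-0.55, limma adjusted p = 0.0394) and did not pass in the second comparison (0.39, adjusted p = 0.094). Psma5 had log2 differences of -0.78 and 0.93 in the first and second comparison and passed in both, and Psma3 passed in the second only (0.70). Psma1 (-0.20 and 0.36) and Psma7 (-0.46 and 0.43) passed in neither. A RefSeq pseudogene exists for Psma5, and its value is uncertain in that respect.

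The beta ring holds the 3 active sites, and all 3 catalytic genes were lower in the libraries labelled anti-CTLA4 than with control IgG. Psmb5 (chromosome 14, 54614120 to 54617995, minus strand), the chymotrypsin-like subunit whose promoter is shown above, had 55.7, 55.5 and 58.7 FPKM with CD4 depletion plus anti-CTLA4, 43.5 and 30.2 FPKM in the libraries labelled anti-CTLA4 and 57.0 and 55.1 FPKM with control IgG. Its log2 difference was -0.62 in the first comparison (SE 0.19, limma adjusted p = 0.0396) and 0.63 in the second (SE 0.174, adjusted p = 0.0348). Psmb6 (chromosome 11, 70525357 to 70527858, plus strand), the caspase-like subunit, had 146, 184 and 154 FPKM with CD4 depletion plus anti-CTLA4, 122 and 87.0 FPKM in the libraries labelled anti-CTLA4 and 171 and 183 FPKM with control IgG. Psmb6 passed against control IgG (-0.77, limma adjusted p = 0.0307) and just missed the threshold in the second comparison (0.63, adjusted p = 0.0503). Psmb7 (chromosome 2, 38588046 to 38643906, minus strand), the trypsin-like subunit, had 71.9, 78.3 and 78.8 FPKM with CD4 depletion plus anti-CTLA4, 51.4 and 39.1 FPKM in the libraries labelled anti-CTLA4 and 81.6 and 98.6 FPKM with control IgG. Its libraries labelled anti-CTLA4 were lowest, and it passed in both comparisons (-0.99, adjusted p = 0.0117, and 0.75, adjusted p = 0.0214, limma). RefSeq lists pseudogenes of Psmb5, Psmb6 and Psmb7, so reads could be shared with them.

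Among the structural beta subunits, Psmb1 (chromosome 17, 15475721 to 15498276, minus strand) had 128, 169.9 and 148 FPKM with CD4 depletion plus anti-CTLA4, 101 and 74.3 FPKM in the libraries labelled anti-CTLA4 and 187 and 185 FPKM with control IgG. The 3 groups did not overlap, with control IgG highest, and Psmb1 had the largest fall of the 14 core genes (log2 difference -1.09, SE 0.216, limma adjusted p = 0.0122). Psmb4 (chromosome 3, 94884324 to 94886958, minus strand) had 121, 145 and 144 FPKM with CD4 depletion plus anti-CTLA4, 86.9 and 51.9 FPKM in the libraries labelled anti-CTLA4 and 125 and 132 FPKM with control IgG. The 2 libraries labelled anti-CTLA4 were far apart from each other and below the rest, and Psmb4 had the largest rise of the core genes in the second comparison (1.01, SE 0.23, limma adjusted p = 0.0214). Psmb3 passed in both (-0.91 and 0.77). Psmb2 (chromosome 4, 126677643 to 126709715, plus strand) had 133, 123 and 133 FPKM with CD4 depletion plus anti-CTLA4, 127 and 97.7 FPKM in the libraries labelled anti-CTLA4 and 125 and 129 FPKM with control IgG. Its replicate 1 labelled anti-CTLA4 lay within the range of the other groups, and it had the smallest difference of the 34 genes in both comparisons (-0.18 and 0.22).

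In the ATPase ring, Psmc1, Psmc2, Psmc5 and Psmc6 passed in both comparisons and Psmc3 and Psmc4 in neither. Psmc6 (chromosome 14, 45329824 to 45349071, plus strand) had 56.9, 50.1 and 62.7 FPKM with CD4 depletion plus anti-CTLA4, 32.5 and 24.4 FPKM in the libraries labelled anti-CTLA4 and 60.6 and 52.4 FPKM with control IgG. The level in libraries labelled anti-CTLA4 averaged 28.5 ± 5.77 FPKM, against 56.5 ± 5.77 FPKM with control IgG (SD, n = 2 each), and the log2 difference was -0.98 (SE 0.196, limma adjusted p = 0.0125). In the second comparison it was 0.97 (SE 0.179, limma adjusted p = 0.0146). Psmc5 (chromosome 11, 106256185 to 106263112, plus strand) had 85.1, 95.6 and 100.3 FPKM with CD4 depletion plus anti-CTLA4, 61.1 and 49.9 FPKM in the libraries labelled anti-CTLA4 and 96.9 and 104 FPKM with control IgG. Its differences were -0.85 (SE 0.172, adjusted p = 0.0126) and 0.75 (SE 0.157, adjusted p = 0.0178, limma). Psmc1 was the most uneven of the ring in the depletion group, at 76.4, 86.6 and 125 FPKM, and had log2 differences of -0.88 and 1.02. Psmc3 had -0.32 and 0.27, and Psmc4 had -0.43 and 0.55.

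The non-ATPase base subunits are the scaffold proteins Psmd1 and Psmd2 and the ubiquitin receptor Psmd4. Psmd1 (chromosome 1, 86064619 to 86139295, plus strand) had 54.2, 61.2 and 66.2 FPKM with CD4 depletion plus anti-CTLA4, 37.6 and 30.4 FPKM in the libraries labelled anti-CTLA4 and 64.6 and 72.8 FPKM with control IgG. The libraries labelled anti-CTLA4 were lowest, with differences of -1.0 (SE 0.177, adjusted p = 0.0107) and 0.82 (SE 0.162, adjusted p = 0.0162, limma). Psmd2 (chromosome 16, 20651652 to 20663414, plus strand) had 52.4, 51.8 and 50.04 FPKM with CD4 depletion plus anti-CTLA4, 38.9 and 34.1 FPKM in the libraries labelled anti-CTLA4 and 55.1 and 51.6 FPKM with control IgG. It passed in both with smaller differences (-0.54, adjusted p = 0.0262, and 0.49, adjusted p = 0.0334, limma). Psmd4 (chromosome 3, 95032691 to 95042614, minus strand) had 82.3, 86.9 and 100.6 FPKM with CD4 depletion plus anti-CTLA4, 61.7 and 53.5 FPKM in the libraries labelled anti-CTLA4 and 77.7 and 84.6 FPKM with control IgG. It missed the threshold against control IgG (-0.49, limma adjusted p = 0.0558) and passed in the second comparison (0.63, adjusted p = 0.0261).

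The lid, which carries the deubiquitinase Psmd14, had 7 of 8 genes past the threshold in both comparisons. Singly, 28.8% of all genes were lower in the first and 22.8% higher in the second. Psmd7 (chromosome 8, 107580380 to 107588482, minus strand), the partner of Psmd14 in the lid, had 72.8, 97.2 and 103 FPKM with CD4 depletion plus anti-CTLA4, 44.9 and 39.8 FPKM in the libraries labelled anti-CTLA4 and 103 and 108 FPKM with control IgG. The libraries labelled anti-CTLA4 had 42.4 ± 3.65 FPKM, against 105 ± 3.37 FPKM with control IgG (SD, n = 2 each), a change of -59.8% in the mean, and replicates 1 and 2 of the depletion group lay between. Of the 34 genes, Psmd7 had the largest differences, -1.30 (SE 0.202, adjusted p = 0.00965) in the first and 1.07 (SE 0.184, adjusted p = 0.0137) in the second comparison (limma). Psmd14 (chromosome 2, 61711694 to 61800376, plus strand) had 57.1, 55.3 and 58.7 FPKM with CD4 depletion plus anti-CTLA4, 36.1 and 29.2 FPKM in the libraries labelled anti-CTLA4 and 55.2 and 59.3 FPKM with control IgG. It was even within the depletion and control IgG groups, which overlapped, and differed by -0.80 (SE 0.158, adjusted p = 0.0123) and 0.79 (SE 0.144, adjusted p = 0.0144, limma). Psmd11 (chromosome 11, 80428615 to 80472133, plus strand), a lid subunit that supports assembly, had 38.4, 45.0 and 41.4 FPKM with CD4 depletion plus anti-CTLA4, 25.8 and 23.9 FPKM in the libraries labelled anti-CTLA4 and 44.9 and 48.2 FPKM with control IgG. The 2 libraries labelled anti-CTLA4 agreed closely here and were lower (-0.88, SE 0.149, limma adjusted p = 0.0101). Psmd3 (-0.88 and 0.74), Psmd6 (-0.97 and 0.85), Psmd12 (-0.88 and 0.68) and Psmd13 (-0.44 and 0.48) also passed in both. Psmd8 passed in neither (-0.28 and 0.32).

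The base assembly chaperones Psmd5, Psmd9 and Psmd10 bind ATPases during assembly and are not part of the finished particle. Psmd5 (chromosome 2, 34852089 to 34870962, minus strand) had 29.2, 31.0 and 26.7 FPKM with CD4 depletion plus anti-CTLA4, 21.0 and 22.8 FPKM in the libraries labelled anti-CTLA4 and 31.8 and 34.8 FPKM with control IgG. It alone of the 34 was higher in replicate 2 than in replicate 1 labelled anti-CTLA4, and it passed against control IgG (-0.58, limma adjusted p = 0.0228) but not in the second comparison (0.39, adjusted p = 0.0671). Psmd9 (chromosome 5, 123228190 to 123250125, plus strand) had 11.9, 15.0 and 10.51 FPKM with CD4 depletion plus anti-CTLA4, 9.38 and 6.47 FPKM in the libraries labelled anti-CTLA4 and 11.4 and 13.2 FPKM with control IgG, and passed in neither (-0.59 and 0.60). Psmd10, also known as gankyrin and the only X-linked member, passed in neither (-0.35 and 0.33). Of 4 Y-linked genes, Ddx3y, Uty and Eif2s3y were above all other libraries in the depletion group, and Kdm5d overlapped control IgG. Ddx3y had 4.88, 3.24 and 2.52 FPKM in the depletion group, against 0.600 and 0.149 FPKM in the libraries labelled anti-CTLA4 and 1.21 and 0.576 FPKM with control IgG. The Y-linked genes did not separate labelled anti-CTLA4 from control IgG, but the X-linked Xist, which is transcribed from the inactive X chromosome, did. Xist had 3.42, 2.55 and 2.42 FPKM with CD4 depletion plus anti-CTLA4, 3.85 and 6.08 FPKM in the libraries labelled anti-CTLA4 and 2.16 and 2.48 FPKM with control IgG. It was higher in labelled anti-CTLA4 against control IgG (0.82, limma adjusted p = 0.0358). Each of the 7 libraries held both Xist (2.16 to 6.08 FPKM) and the Y-linked Eif2s3y (0.335 to 6.86 FPKM). Why both were present was not tested. A difference in the sex of the mice cannot be told apart from the treatment in any of the 3 comparisons.

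Across the first 2 comparisons, 21 genes passed in both, Psma2, Psmb6 and Psmd5 in the first only, Psma3 and Psmd4 in the second only, and 8 in neither. Of all genes, 28.8% were lower in the first and 22.8% higher in the second, and the share passing in both was not computed. Because both comparisons use the same libraries labelled anti-CTLA4, passing in both is not independent support. The genes that passed under each of the 4 scalings run were Psmb1, Psmb7, Psmd1, Psmd3, Psmd6, Psmd7 and Psmd11 in the first comparison and Psmc1, Psmc6, Psmd1, Psmd6, Psmd7 and Psmd11 in the second. The lid genes Psmd6, Psmd7 and Psmd11 and the scaffold gene Psmd1 are in both lists. These 7 and 6 genes are those that passed with median-of-ratios scaling. There 15.7% of all genes were lower in the first comparison and 11.2% higher in the second. The share of all genes that passed under all 4 scalings was not computed, so the lists do not set the subunits apart from other genes. Under quantile normalization 15 genes were lower in the first comparison and 17 higher in the second, against 16.0% and 11.1% of all genes. Scaling to the homeostatic microglia markers, which lie higher in the libraries labelled anti-CTLA4, gave 32 and 34, against 56.7% and 65.3% of all genes.

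**Figure D3:**
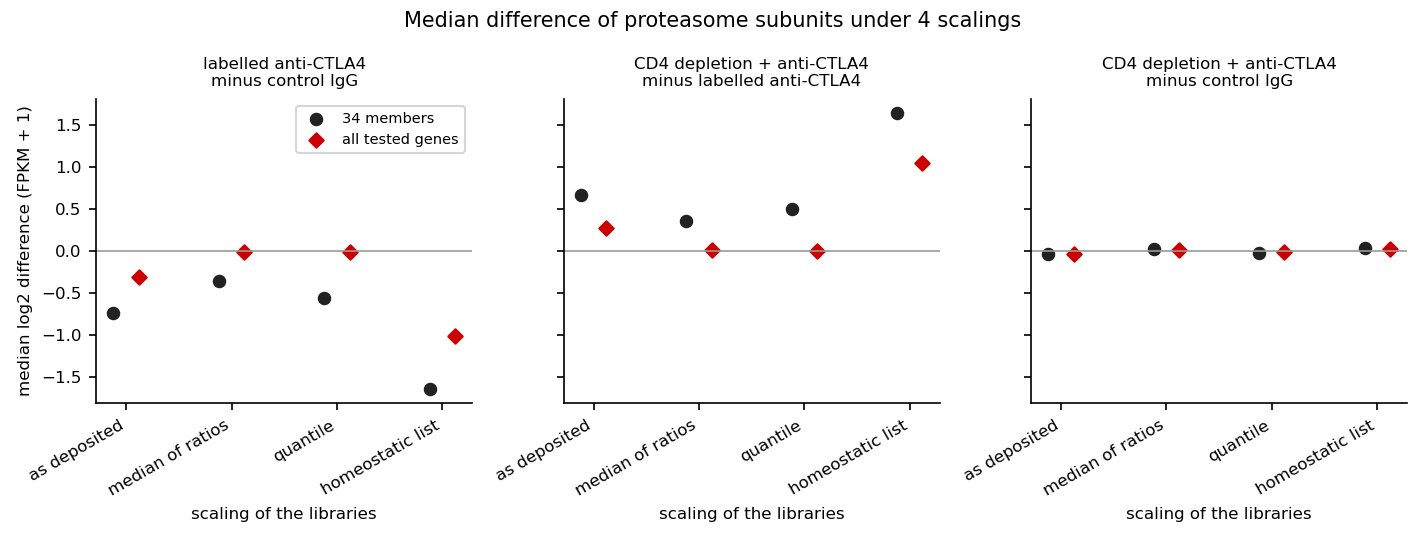
Median log2 difference in FPKM + 1 of the 34 genes (circles) and of all tested genes (diamonds) under 4 scalings of the libraries. The median of the 34 lies below that of all genes in each of the 4 scalings of the first comparison (-0.73 against -0.31 as deposited) and above it in each of the second (0.66 against 0.27 as deposited).

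The ratio of each immunoproteasome subunit to the constitutive subunit it replaces is not changed when all values of a library are multiplied by 1 factor. Psmb8 made up 61.0%, 74.1% and 57.9% of the Psmb8 and Psmb5 FPKM with CD4 depletion plus anti-CTLA4, 84.2% and 85.2% in the libraries labelled anti-CTLA4 and 80.6% and 81.3% with control IgG. Psmb9 made up 16.4%, 30.4% and 20.2% of Psmb9 and Psmb6 with CD4 depletion plus anti-CTLA4, 51.4% and 54.8% in the libraries labelled anti-CTLA4 and 44.7% and 36.7% with control IgG. Psmb10 made up 37.3%, 45.2% and 35.4% of Psmb10 and Psmb7 with CD4 depletion plus anti-CTLA4, 60.2% and 63.3% in the libraries labelled anti-CTLA4 and 50.5% and 45.9% with control IgG. For each pair the order was the same, lowest in the depletion group and highest in the libraries labelled anti-CTLA4, with no overlap between any groups. In labelled anti-CTLA4 against control IgG the log2 ratio was higher by 0.37, 0.72 and 0.78 for Psmb8, Psmb9 and Psmb10 (exact permutation p = 0.333 each, two-sided, the smallest that 2 against 2 libraries allow). With CD4 depletion plus anti-CTLA4 it differed by -1.57, -1.996 and -1.30 from labelled anti-CTLA4 and by -1.20, -1.27 and -0.52 from control IgG (exact permutation p = 0.2 each, the smallest that 3 against 2 allow, and 0.3 adjusted over the 9 tests). No test of this size can reach 0.05.

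**Figure D4:**
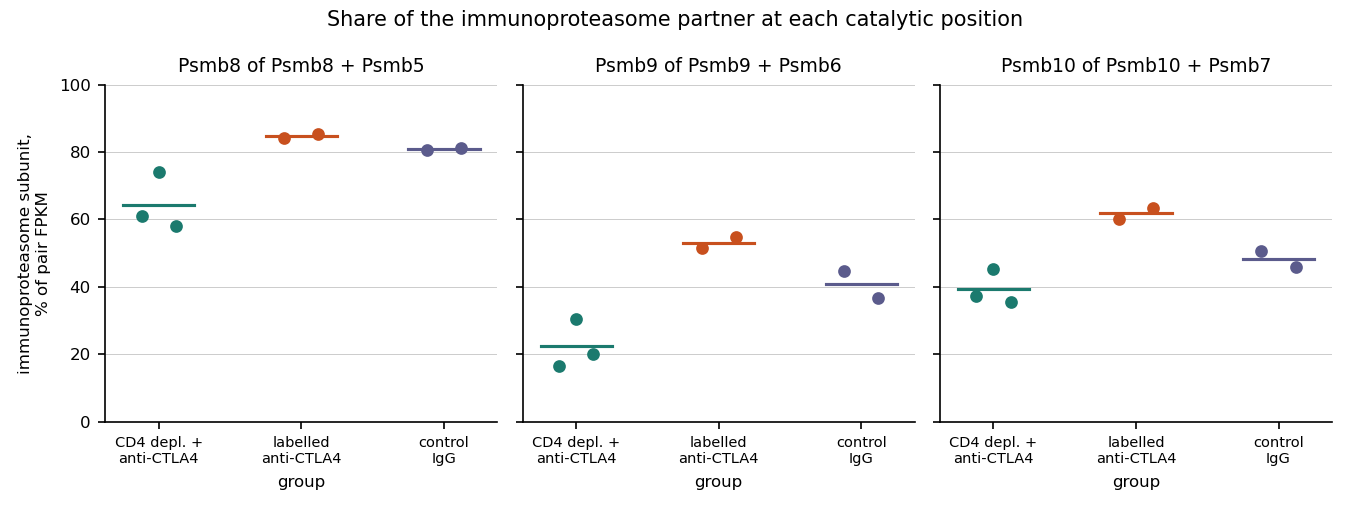
Immunoproteasome subunit as a percentage of the FPKM of its catalytic pair, 1 point per library with a bar at the group mean, for CD4 depletion plus anti-CTLA4, labelled anti-CTLA4 and control IgG. The depletion libraries are lowest in each panel (Psmb9 16.4% to 30.4%) and the libraries labelled anti-CTLA4 highest (51.4% and 54.8%).

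The numerators and denominators moved differently. Psmb8, Psmb9 and Psmb10 did not pass in labelled anti-CTLA4 against control IgG, with log2 differences of -0.25, -0.05 and -0.20, where the constitutive partners were lower. With CD4 depletion plus anti-CTLA4 against labelled anti-CTLA4, Psmb9 was lower (49.3 ± 27.4 FPKM, n = 3, against 117.5 ± 16.8 FPKM, n = 2, SD, log2 difference -1.36, SE 0.395, limma adjusted p = 0.0398). Psmb8 (-0.94, adjusted p = 0.0534) and Psmb10 (-0.55, adjusted p = 0.0807) missed the threshold in that limma fit, where Psmb5 and Psmb7 were higher. The Psmb9 difference stayed at -1.36 without either control IgG library and was -1.51 without replicate 2 labelled anti-CTLA4. Psmb9 no longer passed in any of these fits. Against control IgG the 3 had log2 differences of -1.19, -1.41 and -0.75 that did not pass (limma adjusted p = 0.71 each), although each depletion library lay below both control IgG libraries.

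Other genes of the pathway were read from lists by role, beside all genes tested, of which 28.8% were lower and 9.29% higher in the first comparison and 22.8% were higher and 6.59% lower in the second. Of 5 activators and inhibitors of the core, 1 was lower in the first comparison and 1 was higher and 1 lower in the second. Psme1, a subunit of the interferon-inducible PA28 cap, had 75.7, 89.96 and 79.2 FPKM with CD4 depletion plus anti-CTLA4, 149.6 and 123 FPKM in the libraries labelled anti-CTLA4 and 123 and 114 FPKM with control IgG. Psme1 was lower in the second comparison (-0.73, SE 0.161, limma adjusted p = 0.02) but turned positive there (0.28) when scaled to the homeostatic microglia list. The nuclear cap Psme3 moved as the 34 did (-0.70, adjusted p = 0.0167, and 0.47, adjusted p = 0.0486). Psme2, the other PA28 subunit, did not pass (-0.14 and -0.43), and its reads can be shared with the near-identical Psme2b. Among 5 core assembly chaperones only Psmg3 passed, in the first comparison (-0.62, limma adjusted p = 0.0368), and the maturation protein Pomp had -0.31 and 0.00. Of 2 tissue-restricted core subunits, only Psma8 was tested, with low levels of 0.783 to 2.135 FPKM. Opposite to the constitutive subunits, Psma8 was higher in the first comparison (0.65, limma adjusted p = 0.0425). It did not pass in the second (-0.48, adjusted p = 0.0884). Later statements on named list genes with libraries left out do not cover Psma8.

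Of 11 other particle subunits and bound factors with a row, 4 were lower in the first comparison and 4 were higher in the second (36.4% each, against 28.8% and 22.8% of all genes), with medians of -0.44 and 0.38. Ubqln2, a shuttle that brings ubiquitinated proteins to the particle, had 5.44, 7.13 and 7.72 FPKM with CD4 depletion plus anti-CTLA4, 2.81 and 2.92 FPKM in the libraries labelled anti-CTLA4 and 8.59 and 7.95 FPKM with control IgG. The 3 groups were separate, and Ubqln2 differed by -1.26 (SE 0.197, adjusted p = 0.00967) and 0.99 (SE 0.18, adjusted p = 0.0144, limma). The small lid subunit Shfm1, now named Sem1, had -0.80 and 0.89, and the ligase Ube3c had -0.66 and 0.54, each past the threshold. The deubiquitinase Uchl5 passed in the second only (0.50).

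Of 8 tested genes that control proteasome transcription, 2 were higher and 1 lower in the first comparison, and 1 was higher and 1 lower in the second. These counts rest on 1 or 2 genes each, beside 28.8% lower and 9.29% higher among all genes in the first comparison and 22.8% higher and 6.59% lower in the second. Nfe2l1, the gene of Nrf1, had 23.4, 34.9 and 25.6 FPKM with CD4 depletion plus anti-CTLA4, 18.9 and 20.5 FPKM in the libraries labelled anti-CTLA4 and 33.7 and 26.7 FPKM with control IgG. It had the direction of the subunits but passed in neither comparison (-0.58, adjusted p = 0.0712, and 0.47, adjusted p = 0.113, limma). Nfe2l2, the gene of Nrf2, had 69.3, 53.2 and 63.1 FPKM with CD4 depletion plus anti-CTLA4, 101.8 and 101.7 FPKM in the libraries labelled anti-CTLA4 and 54.5 and 41.3 FPKM with control IgG. It moved opposite to the subunits, higher in labelled anti-CTLA4 against control IgG (1.08, SE 0.197, limma adjusted p = 0.011) and lower with CD4 depletion plus anti-CTLA4 against labelled anti-CTLA4 (-0.72, SE 0.18, adjusted p = 0.0274), although it turned positive (0.29) in the second comparison when scaled to the homeostatic list. Ddi2, the protease that activates Nrf1, was higher in the first comparison (0.80, limma adjusted p = 0.0329) and turned negative (-0.05) under that scaling. Nfyb, a subunit of the factor that binds CCAAT, was lower and higher in the 2 comparisons (-1.06 and 0.83, both past the threshold).

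Of the 8 genes reported for ubiquitin, its activating enzymes and the Vcp segregase, 3 were lower in the first comparison and 3 were higher in the second (37.5% each, against 28.8% and 22.8% of all genes), so these counts were not far from those of all genes. Uba1, the main ubiquitin-activating enzyme, had 64.5, 87.8 and 90.2 FPKM with CD4 depletion plus anti-CTLA4, 42.3 and 36.5 FPKM in the libraries labelled anti-CTLA4 and 89.96 and 86.3 FPKM with control IgG. It was lower in the first comparison (-1.15, SE 0.202, limma adjusted p = 0.0106) and higher in the second (1.01, adjusted p = 0.0146). The ubiquitin fusion gene Rps27a had -0.91 and 1.03 and the Vcp cofactor Nploc4 had -0.52 and 0.52, each past the threshold. The Rps27a values are low, from 2.725 FPKM in a library labelled anti-CTLA4 to 8.436 FPKM in a depletion library. In the second comparison, Psme3, Ube3c, Uchl5 and Nploc4 kept their differences but no longer passed when either control IgG library was left out. The calls in these lists also depended on single libraries, since 0 of all genes passed without replicate 2 labelled anti-CTLA4 in both comparisons, or without replicate 1 of control IgG in the first. Without replicate 2 of control IgG, Ubqln2 still passed in the first comparison (limma adjusted p = 0.0489), and the other list genes named here as passing there did not.

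**Figure D5:**
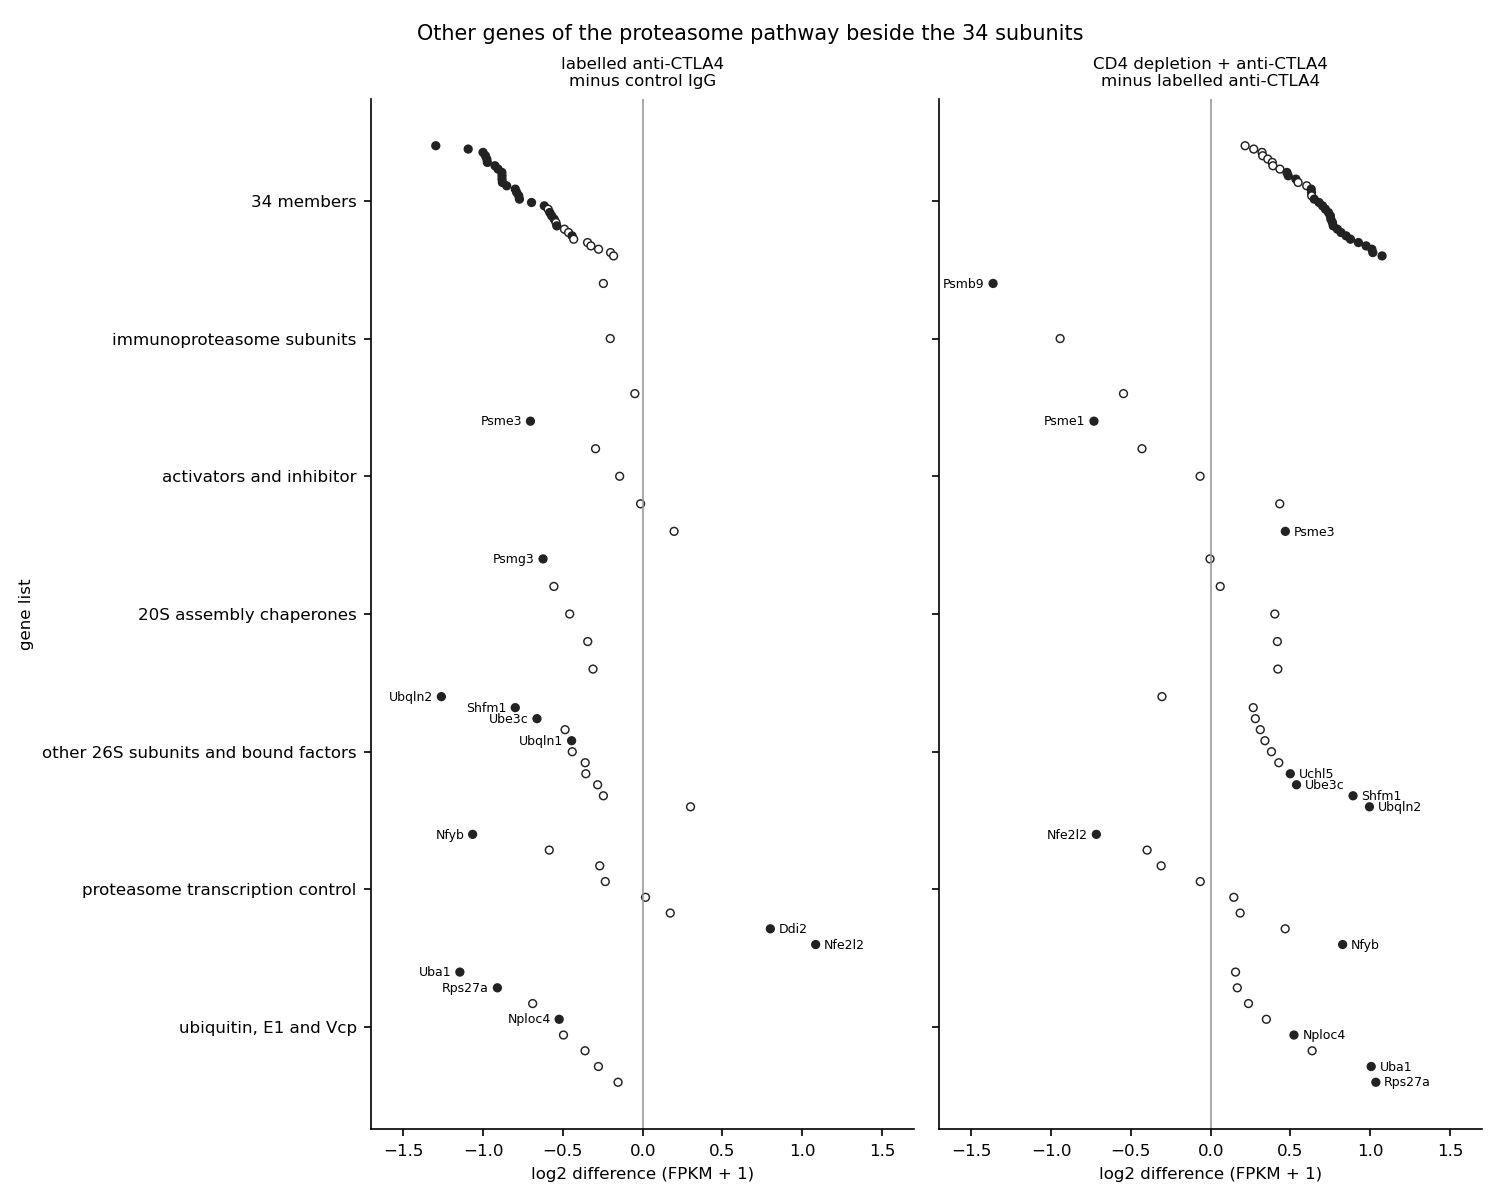
Log2 difference in FPKM + 1 of the 34 genes and of 6 pathway lists in the first 2 comparisons, with filled points past limma's adjusted p under 0.05 and those of the lists named. Most list genes lie on the side of the 34. Nfe2l2, Ddi2, Psme1, AI314180, Nfya and Nfyc lie on the opposite side in both panels. Psmb8, Psmb9, Psmb10, Psme2, Psmf1 and Pomp lie on the opposite side in the second panel only.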

How the data were processed

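STAR, HOMER and DESeq2 with build mm10 are named in the submitters' processing notes, with versions not given in the sources used here. The authors' deposited FPKM values came, per the file headers, from HOMER counting of exons on both strands, with 1 row kept per gene and a transcript length column. Low values of transcripts of 200 to 800 nucleotides, up to 20 reads, lay within 0.1 of whole reads and gave the depth.

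Values were analysed as log2(FPKM + 1), which understates the change of low genes, with limma 3.58.1 in R 4.3.3. A gene was tested if 2 or more libraries reached 1 FPKM, and tests were two-sided, with a mean-variance trend, all 7 libraries sharing 1 estimate of the spread and Benjamini-Hochberg adjustment over all genes. Ratios of catalytic pairs were compared by exact permutation (scipy 1.17.1). Alternatives were 3 other scalings, a pseudocount of 0.1, no filter or one at 5 FPKM, no trend, 2 groups only, a replicate block and each library left out. The procedure was checked on simulated data.

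Per-library values are given for the catalytic genes and, per subcomplex, for the 2 genes with the smallest p in each of the first 2 comparisons. List genes that passed with 1 of the 4 smallest p of their list are named, some with log2 differences only. Psmb8, Psmb9, Psmb10, Psme1, Psme2, Nfe2l1 and Pomp were named regardless, and Psmb2 and Psmc1 were chosen after their values were seen. Members and lists were chosen with earlier results of these data known. Protein sequences were not used here. A gene of the ubiquitin list is not reported here.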

Additional observations from a re-analysis of the deposited data

How the results depend on the processing

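In labelled anti-CTLA4 against control IgG, the number of the 34 genes called lower was 24, and it was 7 with median-of-ratios scaling, 15 with quantile normalization and 12 with a replicate block. Of all genes, 28.8% were lower as deposited, against 15.7%, 16.0% and 15.9% in those settings. The number of the 34 also changed when libraries were left out. It was 0 to 25 with 1 library left out, and 0 without replicate 2 labelled anti-CTLA4 or without either control IgG library. The 25 were called without replicate 1 of the depletion group, where 34.3% of all genes were lower. The median of the 34 was -0.365, -0.561 and -1.645 with median-of-ratios, quantile and homeostatic-list scaling, and -0.917 to -0.507 with 1 library left out. In CD4 depletion plus anti-CTLA4 against labelled anti-CTLA4, 22.8% of all genes were higher as deposited and 11.2% with median-of-ratios scaling. There the number of the 34 called higher was 23 as deposited and 6 with median-of-ratios scaling. It was 0 with a replicate block, where 0 of all genes passed. It was 0 to 25 with 1 library left out (0 without replicate 2 labelled anti-CTLA4). The 25 were called without replicate 1 of the depletion group, where 32.1% of all genes were higher. The median of the 34 was 0.354, 0.498 and 1.64 under the 3 scalings, and 0.521 to 0.824 with 1 library left out. In CD4 depletion plus anti-CTLA4 against control IgG, 0 genes passed in every setting run, and the median was 0.021 and 0.036 with median-of-ratios and homeostatic-list scaling, -0.073 with a replicate block and -0.073 to -0.017 with 1 library left out. The cause of these changes was not tested. Whether the replicate numbers pair the libraries is not known. Deviations of same-numbered libraries from their group means correlated at -0.205 to 0.123. In a group of 2 libraries these deviations are exact opposites, so the correlations cannot decide whether the block reflects a real pairing. Counts and medians under the other pseudocount and filters, without the trend and with 2 groups only moved by less than 1.5 times (18 to 24 genes lower and 17 to 24 higher). In those settings 15.8% to 34.1% of all genes were lower in the first comparison. In the second, 9.46% to 29.2% of all genes were higher. The 9 catalytic ratios were rerun only with the other pseudocount, with median-of-ratios scaling and with 1 library left out, and all kept their direction. Median-of-ratios scaling multiplies a library by 1 factor, so it could hardly change them. Quantile normalization was not run for the ratios.

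Of all genes, 1210 were higher and 3747 lower in the first comparison as deposited, against 2132 and 2050 with median-of-ratios scaling, 1928 and 2081 with quantile normalization and 69 and 7391 with homeostatic-list scaling. In the second they were 2969 and 858, against 1455 and 1648, 1452 and 1460, and 8504 and 88.

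Single genes also changed sign in the first comparison. With median-of-ratios scaling these were Psma1 (0.167), Psmb2 (0.187), Psmc3 (0.044), Psmd8 (0.091), Psmd10 (0.004), Psmb8 (0.125), Psmb9 (0.32), Psmb10 (0.165), Psme2 (0.22) and Pomp (0.059), and with quantile normalization Psme2 (0.056). With homeostatic-list scaling these were Psme1 (-0.745) and Ddi2 (-0.045). With 1 library left out, Psmb2 ranged from -0.371 to 0.007, Psmb9 from -0.238 to 0.14 and Psme2 from -0.34 to 0.052. In the second comparison they were Psmb2 (-0.099) and Psmc3 (-0.044) with median-of-ratios scaling. With homeostatic-list scaling they were Psmb8 (0.069), Psmb10 (0.455), Psme1 (0.279), Psme2 (0.558), Pomp (1.008), Nfe2l2 (0.291) and Ddi2 (0.615). Pomp, near 0 in that comparison, also had 0.049 with quantile normalization, 0.032 with a replicate block, and -0.193 to 0.185 with 1 library left out.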
